A study of Mus musculus with 15 samples.

Results

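Ribosome biogenesis is described here through 46 genes in mouse oocytes. They were listed by symbol, with no use of their levels, for their known part in making ribosomes. Earlier results of these data were known when they were chosen. The list runs from the RNA polymerase I machinery to the factors that cut, modify and assemble the RNA of both subunits. Each symbol matched exactly 1 of the 55401 Ensembl gene identifiers of the count tables, of which 36497 were counted in 1 library or more. Germinal vesicle oocytes came from Kunming mice, which the series lists as 12 to 14 days old without an age of their own for the IVV mice. Every library pooled 6 oocytes, amplified by SMART-Seq2. There were 15 libraries in 5 groups of 3. Oocytes grown in vivo (IVV) were set beside oocytes of preantral follicles grown in culture with the neurotrophin NT-4 (IVG-NT) or without it (IVG), which were collected on day 6 or day 10. All 4 cultured groups therefore share isolation as preantral follicles and growth in a dish, and the IVV oocytes, taken by puncture of antral follicles, share neither.

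A ribosome begins in the nucleolus, where RNA polymerase I copies the repeated rRNA genes into a long precursor. Small nucleolar ribonucleoproteins (snoRNPs) modify this precursor, the small-subunit processome folds and cleaves it, and separate sets of factors complete the small and the large subunit before export. A growing oocyte builds and stores ribosomes for the early embryo, and its rRNA transcription falls silent as it reaches full size. The libraries measured the polyadenylated mRNAs of the factors, so neither precursor rRNA nor finished ribosomes were measured. In pooled oocytes, fewer cells of a type and less RNA per cell cannot be told apart.

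The E-box is the set of letters that the MYC and USF families of transcription factors bind, and MYC is a known driver of ribosome biogenesis genes, so the E-boxes that lie before the start of a member are shown. RefSeq promoter windows of GRCm38.p6, from 250 bases before to 50 bases after the annotated start, were matched for 39 of the 46 genes. The letters CACGTG, which read the same on both strands, occurred in 8 of these 39 genes (20.5%), in 2187 of all 27025 genes with a window (8.09%) and in 1424 of the 13267 such genes that were tested here (10.7%). In Rrn3, Imp4 and Utp18 an E-box lay before the start. The Rrn3 stretches are at chr16:13780457-13780516 and chr16:13780624-13780683 on the plus strand, with the E-box ending 210 and 43 bases before the start. That of Imp4 is at chr1:34439681-34439740 on the plus strand, ending 116 bases before it, and that of Utp18 is at chr11:93885767-93885813 on the minus strand, ending 15 bases before it. Capitals mark the E-box.
Rrn3 distal: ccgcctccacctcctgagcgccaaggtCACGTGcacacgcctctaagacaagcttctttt
Rrn3 proximal: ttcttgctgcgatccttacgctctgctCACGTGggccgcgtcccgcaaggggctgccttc
Imp4: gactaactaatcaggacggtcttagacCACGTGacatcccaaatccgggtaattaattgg
Utp18: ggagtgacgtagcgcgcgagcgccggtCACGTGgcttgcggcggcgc

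The GC box letters GGGCGG, read on either strand, were in 23 of the 39 genes (59.0%) against 60.1% of the tested genes with a window, and the TATA box letters TATAAA were in 2 (5.13%) against 10.6%. None of the 3 motifs contains another. A match of letters is not a bound site, and no binding was measured in these oocytes.

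Library depth and make-up set how far the values can be read. Total counts were 19033272 to 43465801 in IVV, 39274848 to 45575465 in IVG day 10, 33860434 to 40658644 in IVG-NT day 10 and 23684453 to 55593251 in IVG day 6. For IVG-NT day 6 they were 5954262, 7125348 and 50336973 in replicates 1, 2 and 3, and replicates 1 and 2 are called shallow. In IVV, replicate 3 was rRNA-rich, as were replicates 1 and 2 of each cultured group: the annotated rRNA gene CT010467.1 held 12.5% to 37.9% of their counts. It held 0.187% to 0.714% in the other 6 (rRNA-poor libraries). IVV thus has 1 rRNA-rich library of 3 and every cultured group has 2, so kind of library and growth in culture are partly confounded. All 10 oocyte markers were detected in every library, with a summed level of 18000 to 21200 CPM (counts scaled to a common library size, TMM-normalized) in IVG day 6 and 11300 to 17000 CPM in the other groups, so IVG day 6 lay wholly above the rest. Granulosa cell markers summed to 253 to 1360 CPM with 4 to 13 of 13 detected, those of theca and stroma to 0 to 36.4 CPM with 0 to 9 of 9, and those of macrophages to 0 to 53.1 CPM with 0 to 8 of 8. Their part in the differences below was not tested.

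All 46 genes had a count in every library except the shallow IVG-NT day 6 replicates 1 and 2. There, 9 genes (Nhp2, Gar1, Pes1, Wdr12, Pwp2, Rrp9, Utp14a, Riok2 and Polr1b) and 6 genes (Bop1, Nat10, Nob1, Polr1b, Ubtf and Rrn3) were at 0, which allows a level of up to 0.542 and 0.522 CPM (3 counts per library, counting error only). The 46 genes together held 0.334% to 0.583% of all counts. Their summed level was 4100 to 5030 normalized CPM in 13 libraries, and 3590 and 6670 in the shallow ones. The summed level thus varied little outside the shallow libraries, while single genes differed widely.

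Levels between genes were compared as FPKM, which is CPM per kilobase of mRNA. Npm1 (nucleophosmin, an abundant histone and ribosome chaperone of the nucleolus) had a mean of 237 FPKM over all libraries, Emg1 (a methyltransferase of small-subunit rRNA) 189, Sbds (which helps free new large subunits for translation) 150, Bms1 (a GTPase of the small-subunit processome) 142, and Nhp2 (a core protein of H/ACA snoRNPs) 91.6. At the low end were Mdn1 (midasin, a giant ATPase that remodels the large-subunit precursor) at 0.904 FPKM, Polr1b at 1.95, Nvl (another ATPase of large-subunit assembly) at 5.08, Ubtf at 5.26 and Gar1 (an H/ACA snoRNP protein) at 6.63. With the union of all exons as the length in place of 1 transcript, Npm1, Bms1, Sbds and Nhp2 led and Emg1 was in place 8.

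Npm1 was the most even of the leaders. It measured 418, 442 and 411 CPM in IVV replicates 2, 3 and 4, 348, 379 and 401 in IVG day 10, 492, 288 and 504 for IVG-NT day 10, 302, 337 and 436 in IVG day 6, and 206, 385 and 458 for IVG-NT day 6. All 3 IVG day 10 libraries lay below all 3 of IVV, and each of the other groups overlapped with IVV. Emg1 differed by kind of library instead, at 404, 123 and 441 CPM in IVV, 76.7, 86.7 and 323 in IVG day 10, 100, 75.6 and 386 for IVG-NT day 10, 77.1, 103 and 301 in IVG day 6, and 42.1, 31.0 and 364 for IVG-NT day 6. Its 6 rRNA-poor libraries were all above its 9 rRNA-rich ones. Emg1 also has an exon overlapping Lpcat3 on the opposite strand, whose reads may be counted with it.

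Bms1 had the reverse order, at 245, 617 and 258 CPM in IVV, 792, 741 and 338 in IVG day 10, 791, 946 and 265 for IVG-NT day 10, 931, 1260 and 269 in IVG day 6, and 640, 949 and 218 for IVG-NT day 6. Nhp2 followed Emg1, with 217, 24.9 and 242 CPM in IVV, 27.9, 33.7 and 195 in IVG day 10, 30.8, 16.9 and 226 for IVG-NT day 10, 39.6, 24.9 and 133 in IVG day 6, and 0, 73.3 and 147 for IVG-NT day 6. Every rRNA-poor library was the lower for Bms1 and the higher for Nhp2. Gar1 had no such split, at 9.93, 7.76 and 14.9 CPM in IVV, 6.01, 7.58 and 9.12 in IVG day 10, 11.5, 6.43 and 10.4 for IVG-NT day 10, 6.98, 20.4 and 5.90 in IVG day 6, and 0, 2.61 and 6.83 for IVG-NT day 6.

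**Figure D1:**
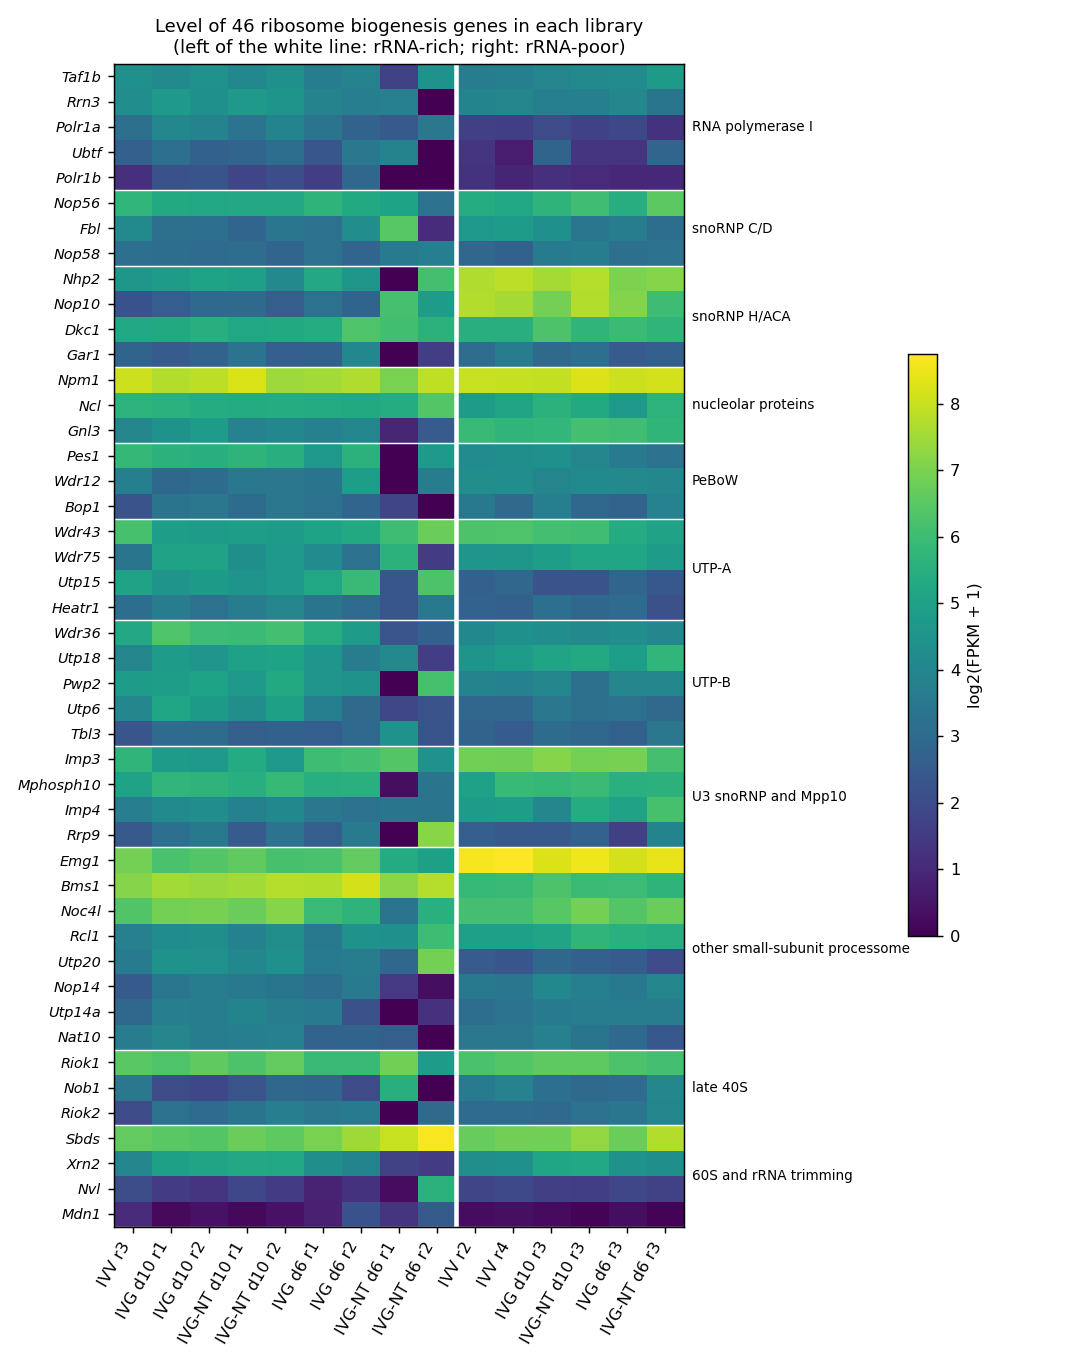
Level of each of the 46 genes as log2(FPKM + 1), 1 row per gene, grouped by role, and 1 column per library, with the 9 rRNA-rich libraries left of the white line and the 6 rRNA-poor ones right of it. Npm1 is bright in every column, Nop10, Nhp2 and Emg1 are brighter on the right, Bms1, Utp15 and Polr1a are brighter on the left, and the columns of IVG-NT day 6 replicates 1 and 2 are patchy.

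The kind of library separated these genes no more often than all genes tested. Among the 5 rRNA-rich and 4 rRNA-poor libraries of IVV and day 10, 17 of the 46 genes had no overlap between kinds. The share was 38.4% of all 21009 genes tested. Of the 17, 9 were higher in the rRNA-rich libraries (background 17%) and 8 lower (background 21.4%). Utp15 (a UTP-A protein of the small-subunit processome) measured 90.2 to 130 CPM in rRNA-rich and 15.1 to 26.2 CPM in rRNA-poor libraries. Nop10 (an H/ACA snoRNP protein) measured 3.94 to 7.92 CPM against 132 to 237 CPM, a mean difference of -5.03 on the log2 scale, and was the widest split of all the members. The difference followed mRNA length. Of the 19 genes with an mRNA of at least 3000 bases, 7 were wholly higher and 0 wholly lower in rRNA-rich libraries, and of the 27 shorter genes, 2 were wholly higher and 8 wholly lower. Across the 46 genes the Spearman correlation of the difference with mRNA length was 0.60, and 0.41 with the union of all exons as the length. Across the 15564 tested genes with an mRNA length it was 0.50 with that length. Genes of 1 library are not independent, and the points share the same 9 libraries, so these coefficients are descriptions. The cause was not tested.

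**Figure D2:**
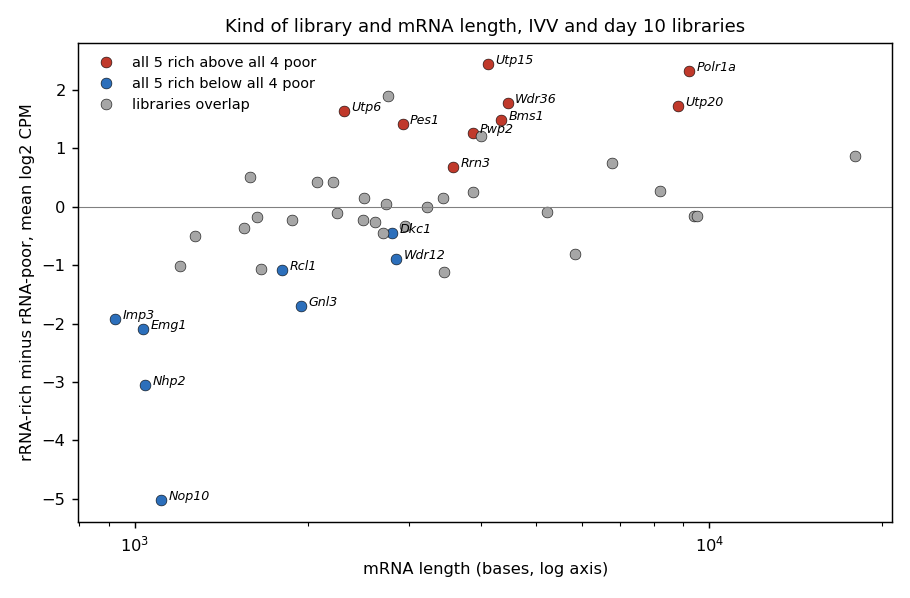
Mean log2 CPM of the 5 rRNA-rich minus that of the 4 rRNA-poor libraries of IVV and day 10 for each gene, against mRNA length on a log axis; colour marks genes whose 2 kinds of library do not overlap. Genes high in rRNA-rich libraries, such as Polr1a and Utp20, lie to the right, and genes low in them, such as Imp3, Emg1, Nhp2 and Nop10, lie to the left.

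The RNA polymerase I genes were low to middling in level and all 5 had higher means in culture on day 10 than in vivo, without any passing the test. Polr1a, the largest subunit of the enzyme (chromosome 6, 71909053 to 71984935, GRCm38), measured 19.9, 76.6 and 19.4 CPM in IVV, 143, 129 and 27.4 in IVG day 10, 84.4, 131 and 21.2 for IVG-NT day 10, 85.9, 54.9 and 25.1 in IVG day 6, and 41.9, 92.1 and 13 for IVG-NT day 6. Its rRNA-poor library was the lowest in every cultured group, and IVV and IVG day 10 overlapped. The fitted log2 fold change of IVG day 10 over IVV was 1.37 ± 0.95 (SE; adjusted p = 1, edgeR quasi-likelihood test). Within rRNA-rich libraries the difference was 0.83, within rRNA-poor ones 0.48, and with kind of library in the fit 0.68 ± 0.49. Here and below, a difference from IVV within a kind sets 2 rRNA-rich libraries against 1, or 1 rRNA-poor library against 2. Between cultured groups the rRNA-poor difference sets 1 library against 1.

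Polr1b, which forms the catalytic centre with Polr1a (chromosome 2, 129100995 to 129126594), was among the rarest, at 5.70, 4.97 and 3.50 CPM in IVV, 13.8, 15.1 and 5.07 in IVG day 10, 10.0, 12.8 and 4.21 for IVG-NT day 10, 8.17, 25.6 and 4.10 in IVG day 6, and 0, 0 and 3.98 for IVG-NT day 6. Ubtf (UBF, which opens and coats active rRNA genes, chromosome 11, 102304560 to 102319742) measured 4.23, 14.7 and 1.71 CPM in IVV, 22.5, 15.2 and 16.7 in IVG day 10, 17.2, 22 and 4.28 for IVG-NT day 10, 11.1, 28.4 and 4.22 in IVG day 6, and 38.3, 0 and 17.1 for IVG-NT day 6. Ubtf was the only RNA polymerase I gene whose IVG day 10 libraries were all above IVV (6.89 ± 6.91 against 18.1 ± 3.87 CPM, mean ± SD, n = 3 each), with a fitted log2 fold change of 1.40 ± 1.43 (adjusted p = 1, edgeR).

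Rrn3 (TIF-IA, which ties the enzyme to its promoter and is a known target of growth signals, chromosome 16, 13780708 to 13814839) measured 51.8, 66.7 and 53.0 CPM in IVV, 89.0, 71.8 and 45.7 in IVG day 10, 90.2, 79.4 and 45.8 for IVG-NT day 10, 50.8, 44.6 and 55.2 in IVG day 6, and 46.1, 0 and 34.0 for IVG-NT day 6. Taf1b (a subunit of the promoter factor SL1, chromosome 12, 24498359 to 24558539) measured 26.7, 44.3 and 27.8 CPM in IVV, 37.4, 47.7 and 32.2 in IVG day 10, 35, 43.7 and 37.4 for IVG-NT day 10, 25.5, 30.6 and 38.9 in IVG day 6, and 4.88, 46.5 and 58.4 for IVG-NT day 6. Outside IVG-NT day 6, Rrn3 stayed within 44.6 to 90.2 CPM and Taf1b within 25.5 to 47.7 CPM, and the groups overlapped. Rrn3 was lower in culture on day 10 within rRNA-poor libraries (-0.20 for IVG and for IVG-NT against IVV, log2 scale) and higher within rRNA-rich ones (0.26 and 0.34).

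**Figure D3:**
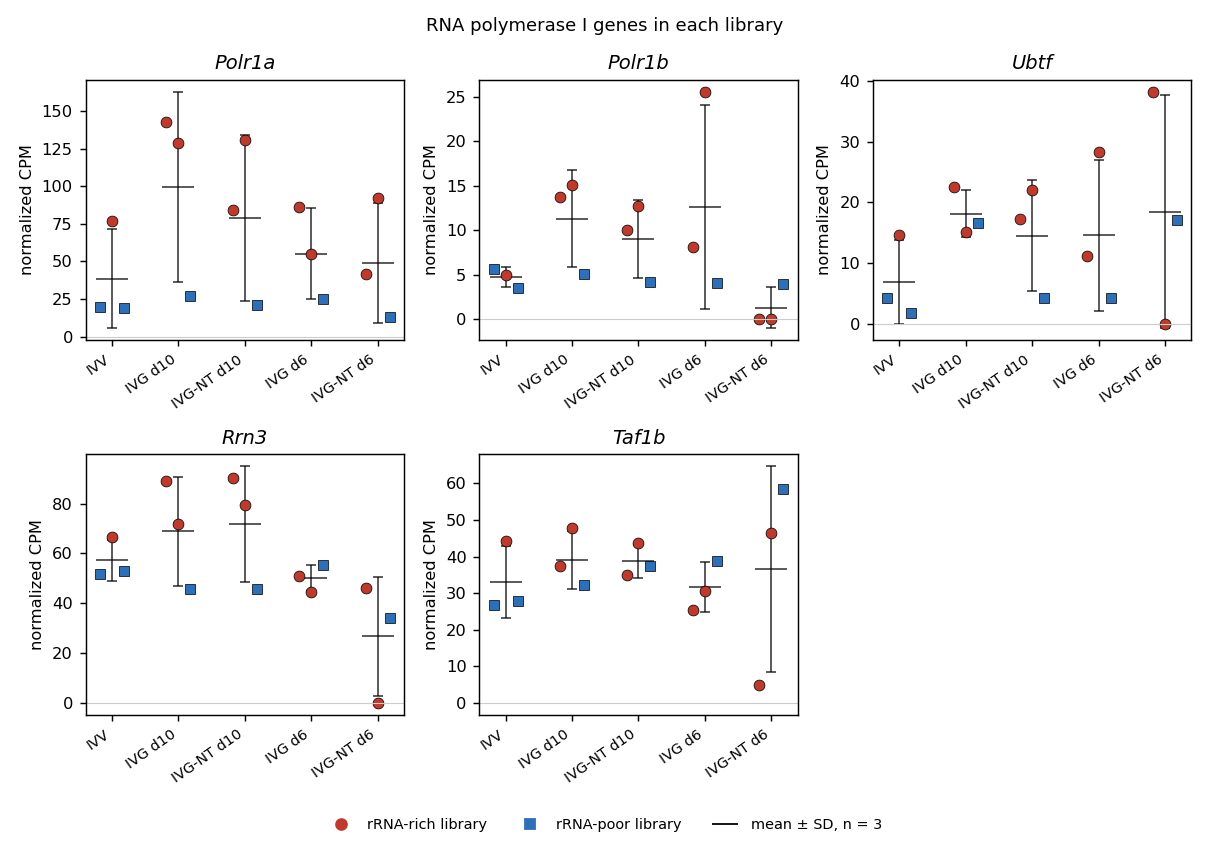
Normalized CPM of the 5 RNA polymerase I genes in each library by group; circles are rRNA-rich and squares rRNA-poor libraries, and bars give the mean ± SD of 3 libraries. The squares lie below the circles for Polr1a in every group, at 13 to 27.4 CPM. Outside IVG-NT day 6, Rrn3 and Taf1b overlap between groups.

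The first comparison asked whether oocytes grown in culture differ from those grown in vivo. In IVG day 10 against IVV, 0 of the 46 genes were called (both an absolute log2 fold change over 1 and P under 0.05 before adjustment, the thresholds in the study's methods), against a background of 2.76% of all 21009 genes tested by edgeR. No member had an unadjusted P under 0.05, adjusted p was 1 for each, no gene of the whole table had an adjusted p under 0.05 (0%), and DESeq2's Wald test likewise called 0 (background 2.22%). With both shallow libraries left out, which was decided with the data in view, 1 was called, Nob1 (background 4.43%). The fitted log2 fold changes ran from -1.63 to 1.40 with a median of 0.29, and 29 of 46 (63.0%) were positive, where the median of all genes tested was -0.20 and 42.7% were positive. Scaled with DESeq2's size factors the 2 medians were 0.10 and -0.39. The members' median stood 0.49 above that of all genes under either scaling. A change of scaling shifts all genes about alike, so it cannot test this gap. This gap was 0.26 with kind of library in the fit and 0.86 without IVG day 10 replicate 3, the only rRNA-poor library of its group.

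By role, all 5 RNA polymerase I genes were positive, from 0.25 to 1.40, as were all 5 of UTP-B, the complex of Pwp2, Tbl3, Wdr36, Utp6 and Utp18 that binds the start of the precursor, from 0.39 to 1.34. They stayed positive with DESeq2's size factors, the smallest being 0.05 (Rrn3 and Taf1b), but with replicate number as a block Polr1a was at -0.10 and Rrn3 at 0. Same-numbered IVV and cultured libraries are of unlike kind, so this block also sets the kinds against each other. The median was 0.58 over 8 other processome genes, 0.43 over UTP-A, and -0.72 over the H/ACA snoRNP genes, of which 1 of 4 was positive. These roles also differ by kind of library. Median mRNA length was 3582 bases for RNA polymerase I and 3872 for UTP-B, with a median difference of 1.21 and 1.27 (log2) between rRNA-rich and rRNA-poor libraries, and 1190 bases and -1.78 for H/ACA snoRNPs. With kind of library as a term of the fit, the 5 RNA polymerase I genes ranged from 0.18 to 1.42 and UTP-B from 0.10 to 1.13, and 0 members were called (background 3.83%). Within rRNA-rich libraries the members' median was 0.31 (all genes 0) and within rRNA-poor ones 0.21 (all genes -0.03), and 21 of 46 genes were higher in both kinds, against 24.7% of all genes.

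The 2 genes with the smallest unadjusted P were UTP-B members. Utp6 measured 14.6, 35.5 and 14.7 CPM in IVV, 80.3, 59.7 and 23.4 in IVG day 10, 44.2, 70.2 and 19.3 for IVG-NT day 10, 29.4, 16.4 and 20.3 in IVG day 6, and 6.14, 8.53 and 16.3 for IVG-NT day 6. IVG day 10 was higher than IVV in each kind of library, while the groups as a whole overlapped (1.34 ± 0.83, adjusted p = 1, edgeR). Wdr36 measured 70.8, 170 and 87.6 CPM in IVV, 351, 282 and 82.8 in IVG day 10, 270, 309 and 73.3 for IVG-NT day 10, 188, 123 and 83.0 in IVG day 6, and 17.3, 25.1 and 69.7 for IVG-NT day 6 (1.13 ± 0.77 for IVG day 10 over IVV, adjusted p = 1, edgeR). Its difference was 0.89 within rRNA-rich and 0.07 within rRNA-poor libraries. Left out singly, only IVG day 10 replicate 3, the rRNA-poor library of its group, gave a call, that of Nop10.

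Groups did not overlap for 11 of the 46 genes, against 11.9% of all genes tested, 7 of them higher in IVG day 10 (Ubtf, Wdr75, Xrn2, Noc4l, Tbl3, Heatr1 and Utp14a; background 5.35%) and 4 lower (Nob1, Nvl, Wdr43 and Npm1; background 6.53%). Xrn2, a nuclear exonuclease that trims rRNA and snoRNA precursors (chromosome 2, 147012996 to 147078000), stood out for its small spread. It measured 65.4, 52.6 and 68.9 CPM in IVV, 105, 116 and 120 in IVG day 10, 128, 124 and 125 for IVG-NT day 10, 66.7, 49.6 and 74.6 in IVG day 6, and 7.95, 6.61 and 66.1 for IVG-NT day 6. All 6 day 10 libraries were above all 9 others, and IVG day 10 was above IVV by 1.07 (log2) within rRNA-rich and 0.84 within rRNA-poor libraries. Each of these differences has only 1 library on 1 side. In the fit over 15 libraries its log2 fold change over IVV was 0.87 ± 0.78, under the fold threshold of 1 (adjusted p = 1, edgeR).

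IVG-NT day 10 against IVV uses the same IVV libraries, so the results are not independent of those above. Of the 46 genes, 0 were called by edgeR, against a background of 3.29%, 0 had P under 0.05 and DESeq2 called 0 (background 2.31%). Without both shallow libraries 1 was called, Fbl (background 4.24%). The median was 0.23 (all genes -0.19) and 34 of 46 (73.9%) were positive against 43.2% of all genes. With DESeq2's size factors the medians were 0.05 and -0.36. The gap between the medians was 0.42, and it was 0.23 with kind of library in the fit and 0.27 in rRNA-rich libraries only. Without IVG-NT day 10 replicate 3, the only rRNA-poor library of its group, it was 0.83. All 5 RNA polymerase I genes (0.23 to 1.08) and all 5 UTP-B genes (0.26 to 1.05) were positive under both scalings. With replicate number as a block, where same-numbered libraries are again of unlike kind, Polr1a was at -0.45 and Pwp2 at -0.11. With kind of library in the fit Pwp2 was at -0.09 and 0 members were called (background 4.31%). Within rRNA-rich and rRNA-poor libraries the members' median was 0.22 and 0.24 (all genes 0 and -0.05), and 22 genes were higher in both kinds, against 24.9% of all genes.

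The smallest P belonged to Wdr43, a UTP-A protein, which measured 272, 248 and 274 CPM in IVV, 100, 93.0 and 241 in IVG day 10, 99.5, 93.0 and 227 for IVG-NT day 10, 112, 134 and 139 in IVG day 6, and 223, 380 and 110 for IVG-NT day 6. Both day 10 groups lay wholly below IVV. The log2 fold change of IVG-NT day 10 over IVV was -0.92 ± 0.64 (adjusted p = 1, edgeR), with -1.37 within rRNA-rich and -0.27 within rRNA-poor libraries. An exon of Wdr43 overlaps CT010429.2 on the opposite strand. Next was Xrn2, at 1.01 ± 0.78 (adjusted p = 1, edgeR), the difference being 1.26 and 0.90 within the 2 kinds. Groups did not overlap for 8 members against 11.6% of all genes, 5 higher (Xrn2, Noc4l, Utp18, Utp14a and Riok2; background 4.57%) and 3 lower (Nob1, Wdr43 and Fbl; background 7.04%). Without IVG-NT day 10 replicate 3, the rRNA-poor library of its group, Nop10 was called.

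The direct question of NT-4 on day 10 compares the 2 cultured groups, whose kinds of library match. It gave the members' narrowest range of the 6 comparisons. The quartiles of all genes tested were also closest there, at a log2 fold change of -0.35 and 0.37. Of the 46 genes, 0 were called by edgeR against a background of 1.24%, with 0 at P under 0.05, 0 called by DESeq2 (background 0.675%) and 0 without both shallow libraries (background 0.628%). Log2 fold changes ran from -0.48 to 0.79 with a median of -0.01 (all genes 0.01), 0.02 with DESeq2's size factors, and 22 of 46 were positive. Dkc1, the pseudouridine synthase of H/ACA snoRNPs, had the smallest P, with 122, 104 and 122 CPM in IVV, 108, 121 and 219 in IVG day 10, 103, 109 and 144 for IVG-NT day 10, 117, 221 and 172 in IVG day 6, and 187, 134 and 145 for IVG-NT day 6. The groups overlapped (-0.33 ± 0.56, adjusted p = 1, edgeR), and without IVG day 10 replicate 3 the value was 0.05. Sbds was at 0.30 ± 0.54 (adjusted p = 1, edgeR). Groups did not overlap for 2 members against 3.59% of all genes, Xrn2 higher (background 1.66%) and Tbl3 lower (background 1.93%).

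**Figure D4:**
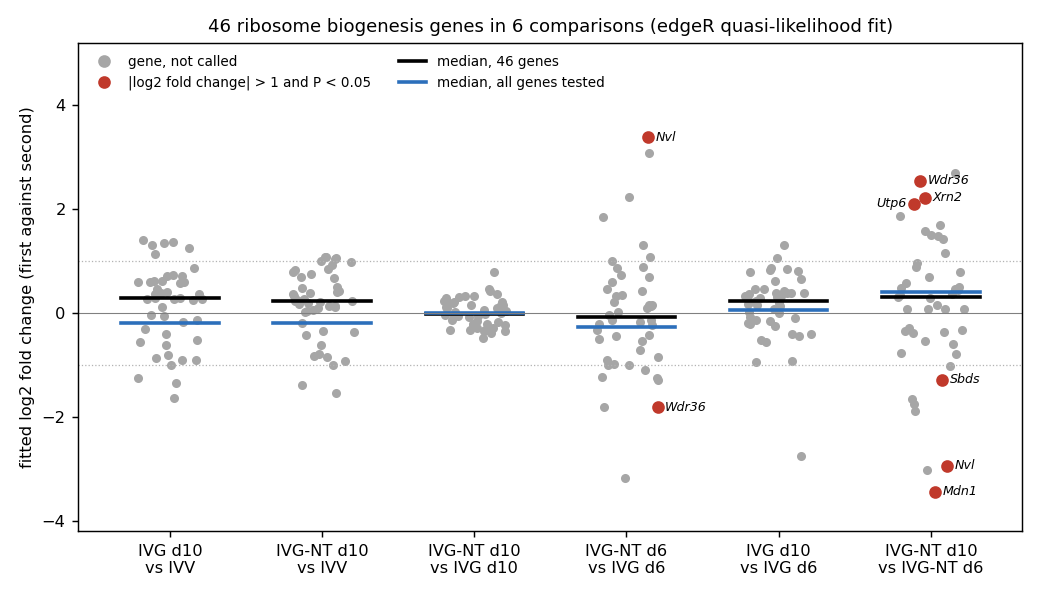
Fitted log2 fold change of each of the 46 genes in the 6 comparisons, with named red points for genes past both thresholds and bars for the median of the 46 genes (black) and of all 21009 genes tested (blue); dotted lines mark a log2 fold change of 1 either way. The members' median lies above that of all genes in both comparisons with IVV. It is also above, by 0.19 and 0.18, in IVG-NT against IVG on day 6 and in IVG day 10 against day 6. The points draw together in IVG-NT against IVG on day 10, where the quartiles of all genes tested also lie closest. Called genes appear only where IVG-NT day 6 takes part. With DESeq2's size factors the members' median is 0.34 in place of -0.08 for IVG-NT day 6 over IVG day 6 and -0.12 in place of 0.30 for IVG-NT day 10 over IVG-NT day 6.

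On day 6, IVG-NT against IVG rests on 2 shallow libraries and 1 deep one. By edgeR, 2 of 46 genes were called against a background of 11.6%, and 0 had an adjusted p under 0.05. In the whole table, 6.74% were called higher and 4.83% lower. The median was -0.08 (all genes -0.27) and 0.34 with DESeq2's size factors (all genes 0). Nvl (chromosome 1, 181087138 to 181144204) measured 23.7, 30.1 and 26.4 CPM in IVV, 17.9, 13.9 and 20.5 in IVG day 10, 24.8, 17.6 and 19.6 for IVG-NT day 10, 7.38, 13.6 and 24.6 in IVG day 6, and 2.17, 452 and 21.3 for IVG-NT day 6. Its rise of 3.38 ± 1.25 (adjusted p = 0.381, edgeR) rested on replicate 2 of IVG-NT day 6, and without that library the value was -0.31. Without IVG day 6 replicate 1 it was 3.04 and not called.

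Wdr36 fell by 1.81 on the log2 scale (SE 0.79, adjusted p = 0.403, edgeR), and all 3 IVG-NT day 6 libraries lay below all 3 of IVG day 6. The gap was -2.86 within rRNA-rich libraries, where the shallow ones had 96 and 144 counts, and -0.25 within rRNA-poor ones. It was no longer called without IVG-NT day 6 replicate 1 (-1.40) or 2 (-1.52), or without IVG day 6 replicate 1 (-1.46) or 2 (-1.81). Leaving out both shallow libraries together, a choice made after the data were seen, gave 0.55 for Nvl and -0.82 for Wdr36, neither called, and 2 other genes, Imp4 and Mdn1, were called (background 2.70%). The number called was 4 without IVG-NT day 6 replicate 1 or 2 (background 10.1% in each case), 12 without replicate 3 (29.1%), and 0 and 1 without IVG day 6 replicate 1 and 2 (7.63% and 7.47%). DESeq2's Wald test called 8 of the 45 genes it tested (background 9.48%), of which Sbds, Ncl and Nvl had an adjusted p under 0.05 (0.0288, 0.0398 and 0.0454).

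Sbds (chromosome 5, 130245731 to 130255530) differed alike in both kinds of library between the day 6 groups. It measured 159, 153 and 179 CPM in IVV, 140, 130 and 179 in IVG day 10, 164, 145 and 245 for IVG-NT day 10, 194, 280 and 168 in IVG day 6, and 394, 631 and 327 for IVG-NT day 6. Every IVG-NT day 6 library, the deep one included, was above all 12 others. Over IVG day 6 the log2 difference was 1.10 within rRNA-rich and 0.96 within rRNA-poor libraries, and the fitted value of 1.07 ± 0.54 missed the threshold (adjusted p = 0.449, edgeR). Groups did not overlap for 6 members, against 8.45% of all genes, with Sbds and Ncl (nucleolin, which binds new rRNA) higher (background 1.01%) and Nat10, Polr1b, Utp6 and Wdr36 lower (background 7.44%).

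Time in culture was compared within each treatment. For IVG day 10 against day 6, 0 of 46 genes were called by edgeR against a background of 2.90%, 0 had P under 0.05, and the median was 0.23 (all genes 0.05), 0.19 with DESeq2's size factors. DESeq2's Wald test called 2, Mdn1 and Utp6, with no adjusted p under 0.05 (background 2.29%), and without both shallow libraries edgeR called 2, Mdn1 and Nat10 (background 3.38%). Mdn1 measured 3.94, 20 and 5.26 CPM in IVV, 2.84, 6.08 and 3.36 in IVG day 10, 2.44, 6.46 and 1.22 for IVG-NT day 10, 13.2, 64.3 and 4.49 in IVG day 6, and 26.7, 82.1 and 1.24 for IVG-NT day 6. It was highest in replicate 2 of both day 6 groups and low in their rRNA-poor libraries. The log2 fold change was -2.74 ± 1.37 (adjusted p = 1, edgeR), and without IVG day 6 replicate 3 it was -3.24 and called. Utp6 was at 1.30 ± 0.83 (adjusted p = 1, edgeR). Groups did not overlap for 9 members against 7.42% of all genes, with Riok1, Bop1, Ncl, Nat10, Xrn2, Mphosph10, Noc4l and Tbl3 higher on day 10 (background 4.47%) and Riok2 lower (background 2.95%). Xrn2 was higher by 0.94 (log2) within rRNA-rich and 0.68 within rRNA-poor libraries.

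For IVG-NT day 10 against day 6, edgeR called 6 of 46 genes against a background of 12.7%, and 0 had an adjusted p under 0.05. The median was 0.30 (all genes 0.40), and -0.12 with DESeq2's size factors (all genes 0.04). Wdr36 (2.54 ± 0.81), Xrn2 (2.22 ± 0.81) and Utp6 (2.10 ± 0.85) rose, and each had all day 10 libraries above all of day 6. Mdn1 (-3.44 ± 1.41), Nvl (-2.94 ± 1.23) and Sbds (-1.28 ± 0.55) fell, and of these only Sbds had groups that did not overlap. Groups did not overlap for 6 members in all, against 11.0% of all genes, 5 higher on day 10 (background 9.74%) and 1 lower (background 1.24%). DESeq2's Wald test called 10 of the 45 genes it tested (background 9.80%), with an adjusted p of 0.00998 for Sbds and 0.0286 for Mdn1. For 3 of the 6 to rise, the background was 5.45%, and for 3 to fall 7.21%. Adjusted p (edgeR) was between 0.357 and 0.365 for the 6.

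Most of these differences sat in the shallow libraries. In rRNA-rich libraries Xrn2 differed by 4.11 (log2), Wdr36 by 3.79 and Utp6 by 2.93, on 34 to 144 counts each in the 2 shallow libraries, and in rRNA-poor libraries by 0.92, 0.07 and 0.24. Sbds differed by -1.69 and -0.41. With the 2 shallow libraries left out, Xrn2 was at 0.83, Wdr36 at 1.52, Utp6 at 1.33, Sbds at -0.91, Nvl at -0.14 and Mdn1 at 1.32, and none of the 6 was called, while Heatr1 was (1 member, background 2.40%). Wdr36 was called with each single library left out. Xrn2 lost its call without IVG-NT day 6 replicate 1 (1.70), and Utp6 without that library (1.76) or without IVG-NT day 10 replicate 1 (2.04) or 2 (1.56). Sbds lost it without IVG-NT day 6 replicate 2 (-1) or IVG-NT day 10 replicate 1 (-1.21) or 2 (-1.14). Mdn1 lost it without IVG-NT day 6 replicate 2 (-2.08) or IVG-NT day 10 replicate 1 (-3.28) or 3 (-3.03). Nvl lost it with each single IVG-NT day 10 library left out (-3.09, -2.83 and -2.89) and turned to 0.72 without IVG-NT day 6 replicate 2. The number called was 2 without IVG-NT day 10 replicate 1 (background 7.10%), 3 without its replicate 2 (7.31%) and 16 without IVG-NT day 6 replicate 3 (30.8%).

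**Figure D5:**
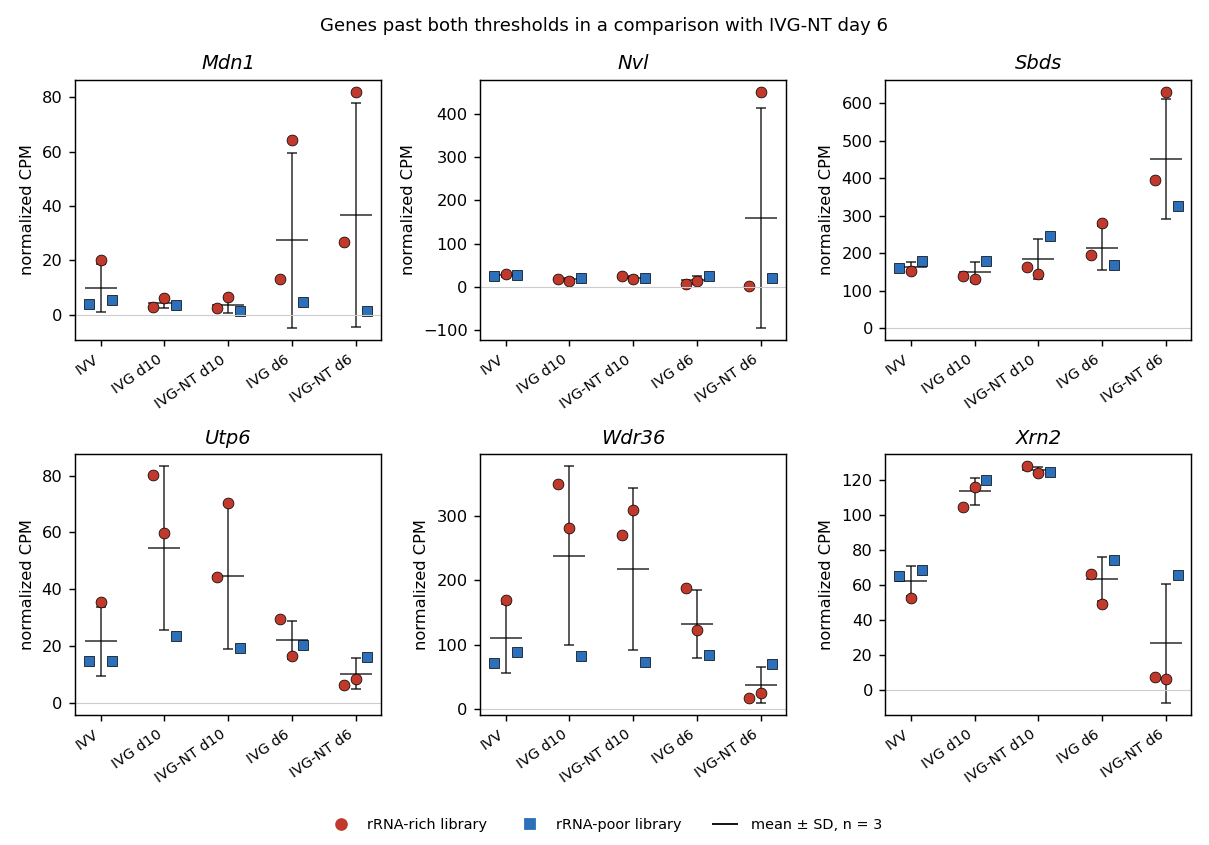
Normalized CPM in each library of the 6 genes called in a comparison that includes IVG-NT day 6; circles are rRNA-rich and squares rRNA-poor libraries, and bars give the mean ± SD of 3 libraries. Xrn2 is near 120 CPM in all day 10 libraries and near 60 in the others but the 2 shallow ones, Sbds is highest in IVG-NT day 6 in all 3 libraries, and Nvl stands out at 452 CPM in 1 library.

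Whether NT-4 acted differently on day 10 and day 6 was tested as an interaction, the difference between both NT-4 effects. Of the 46 genes, 0 were called by edgeR against a background of 6.37%, with 0 at P under 0.05, and DESeq2's Wald test called 3 (Ncl, Nvl and Tbl3; background 4.56%). Without both shallow libraries 0 were called (background 1.95%). The smallest unadjusted P were those of Nvl (-3.13 ± 1.65, adjusted p = 0.831, edgeR) and Utp20 (-2.47 ± 1.46, adjusted p = 0.881). Utp20, a large scaffold of the processome, measured 40.9, 95.2 and 36.3 CPM in IVV, 188, 178 and 59.1 in IVG day 10, 141, 174 and 48.7 for IVG-NT day 10, 96.4, 103 and 42.6 in IVG day 6, and 60, 1060 and 27.6 for IVG-NT day 6. A single shallow library, IVG-NT day 6 replicate 2, held the extreme value of both genes. Without both shallow libraries, which leaves only the rRNA-poor library of IVG-NT day 6, Utp20 was at 1.20.

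The rest of the pathway was followed in 116 further genes, 15 of RNA polymerase I, 33 of the small subunit, 44 of the large subunit, 11 of snoRNP assembly and 13 of the exosome, the complex that trims RNA from its end. In the comparisons among IVV and day 10, and in IVG day 10 against day 6, edgeR called 0 of the 116. The background was 2.76% for IVG day 10 and 3.29% for IVG-NT day 10 against IVV. It was 1.24% for IVG-NT against IVG on day 10 and 2.90% for IVG day 10 against day 6. The median of the 116 for IVG day 10 over IVV was -0.09 and that for IVG-NT day 10 over IVV was -0.14. The groups inside the list went different ways. Of the 15 further RNA polymerase I genes, which include its smaller subunits, 5 were positive in IVG day 10 over IVV with a median of -0.52, where all 5 of the members above were positive. Of the exosome genes, 1 of 13 was positive, with a median of -0.52, where 42.7% of all genes tested were positive with a median of -0.20. These lists have short mRNAs, with medians of 1314 and 1326 bases, and lay lower in rRNA-rich libraries by medians of 1.44 and 1.90 on the log2 scale.

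On day 6, IVG-NT against IVG, 5 of the 116 were called against a background of 11.6%, 2 higher (background 6.74%) and 3 lower (4.83%). Gnl3l, a nucleolar GTPase, had 0, 0 and 8 counts in IVG-NT day 6 and 130 to 320 counts in IVG day 6, and was lower (fitted -6.60 ± 1.97, adjusted p = 0.381, edgeR). Rrp7a, a small-subunit factor, was higher (2.88 ± 0.93, adjusted p = 0.381), with 53.7, 457 and 31.2 CPM against 32.2, 20.4 and 21.1. Nle1, a large-subunit factor, was lower (fitted -4.88 ± 1.75, adjusted p = 0.381), with 0, 0 and 51 counts against 54 to 387. Fitted folds of genes at 0 in a library depend on the prior count. Gnl3l and Rrp7a were also the 2 genes of this list called in the interaction (5.19 and -3.23; background 6.37%). For IVG-NT day 10 against day 6, 7 of 116 were called against a background of 12.7%, 2 higher (background 5.45%) and 5 lower (7.21%), led by Zfp622 with 952 counts in 1 shallow library and at most 25 in the other 5 (fitted -8.69 ± 3.03), Rrp7a (-2.51 ± 0.92) and Tcof1 (treacle, a nucleolar partner of RNA polymerase I), which was higher at 2.15 ± 0.83 (adjusted p = 0.357 for all 3, edgeR).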

How the data were processed

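Each library pooled 6 oocytes. Per the paper and labels, the authors removed reads with adaptors or low quality, mapped those left with HISAT2 (mm10), computed FPKM with StringTie and tested genes with edgeR. They deposited raw counts per Ensembl gene, whole numbers without normalization; how counts were taken, their use of strand and the annotation release are not given in the sources used here. A further table of the whole series was not used here. Of 55401 identifiers, 55141 (99.5%) had a symbol in GENCODE vM21 (GRCm38), which also gave coordinates and lengths. Exons of 18 of the 46 genes overlap a gene on the opposite strand and of 4 a gene on the same strand, whose reads may not be told apart.

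The test was edgeR's quasi-likelihood F test (version 4.0.16, R 4.3.3), with filterByExpr at a minimum count of 10 (21009 genes kept), TMM normalization and 1 mean per group, fitted to the 15 libraries together, with DESeq2 1.42.0 as an alternative. Figures were drawn with matplotlib 3.10.9. Benjamini-Hochberg adjustment was over all genes tested. SE is the log2 fold change divided by the root of its F statistic. CPM are TMM-normalized, and FPKM divide CPM by the length of the transcript with the longest coding sequence. The model was tested on simulated data. Values were given in every library for the RNA polymerase I genes, the 5 highest and 5 lowest members by mean FPKM, and the members named with a test, which were the called members with the smallest P (at most 6) or, under 2 called, the 2 with the smallest P; of the 116 further genes, at most 3 called genes with the smallest P were named per comparison. Members outside these rules are named where groups do not overlap, by role or by setting. The members and lists were chosen with earlier results of these data known, and the 5% limit that defines rRNA-rich libraries was likewise chosen with those shares known. The methods place the 3 samples of a group in 3 replicated experiments; separate animals are not stated, so P values measure the spread between these samples. PCR copies carry no molecular identifier, so counting error is a lower limit.

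Replicate numbers are shared by the 4 cultured groups, and in part by IVV. Replicate 3 was rRNA-poor in each cultured group and rRNA-rich in IVV. Shared kind of library and shared experiment therefore cannot be told apart in the correlations that follow. The correlation of same-numbered deviations was 0.37, 0.41 and 0.73 for IVG-NT against IVG on day 10 and 0.23, 0.15 and 0.54 for IVG day 10 against day 6. It was 0.08, 0.11 and 0.33 for IVG-NT against IVG on day 6 and 0.08, 0.07 and 0.26 for IVG-NT day 10 against day 6, where not every pair passes 0.1, and -0.52 to -0.28 with IVV. The main fits used no pairing for any comparison, and replicate number entered only as a block in a separate setting.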

Additional observations from a re-analysis of the deposited data

How the results depend on the processing

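Calls were few and moved with the setting; the share called among all genes under the same setting is given in parentheses. For IVG day 10 against IVV, 1 gene in place of 0 was called with only the 2 groups in the fit (5.28%), in rRNA-rich libraries only (1.68%) and without both shallow libraries (4.43%), and 0 to 1 with single libraries left out (0.843% to 4.56%); the members' median was 0.10 with DESeq2's size factors, with its Wald test and under the replicate block, in place of 0.29. For IVG-NT day 10 against IVV, the same 3 restrictions gave 1 in place of 0 (4.10%, 1.53% and 4.24%), and single libraries left out 0 to 1 (0.999% to 4.77%). On day 6, IVG-NT against IVG had 5 called with DESeq2's size factors (12.1%), 4 without a filter (11.0%), 8 by the Wald test (9.48%), 1 with 2 groups (3.06%), 6 with kind of library as a term (15.8%), 9 in rRNA-rich libraries (18.1%) and 0 to 12 with single libraries left out (7.47% to 29.1%), in place of 2 (11.6%), and a median of 0.34 with DESeq2's scaling or Wald test. For IVG day 10 against day 6, 2 were called by the Wald test (2.29%), with 2 groups (2.49%) or without the shallow libraries (3.38%), 1 in rRNA-rich libraries (1.77%), and 0 to 1 with single libraries left out (1.33% to 3.91%). For IVG-NT day 10 against day 6, 10 were called by the Wald test (9.80%), 1 with 2 groups (4.51%), 12 in rRNA-rich libraries (19.5%), 1 without the shallow libraries (2.40%) and 2 to 16 with single libraries left out (7.10% to 30.8%), in place of 6 (12.7%), and the median was -0.12 with DESeq2's scaling or Wald test. The interaction had 1 with DESeq2's size factors (6.71%) and 3 by the Wald test (4.56%). Among the members named with a test, direction reversed for Dkc1 in IVG-NT against IVG on day 10 (0.05 without IVG day 10 replicate 3; -0.54 to 0.05 over single libraries left out), for Nvl on day 6 (-0.31; range -0.31 to 3.94) and between days (0.72; range -3.53 to 0.72) without IVG-NT day 6 replicate 2, and, without both shallow libraries, for Mdn1 between days (1.32) and Utp20 in the interaction (1.20). Without both shallow libraries IVG-NT day 6 keeps only its rRNA-poor replicate 3, so kind of library is confounded in part with its comparisons. Leaving out the rRNA gene changed no call. That setting was not run for the interaction. Where the cause of a change is not given by fewer samples, it was not tested. With DESeq2's size factors the median of all genes moved from -0.27 to 0 on day 6 and from 0.40 to 0.04 for IVG-NT between days.

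Replicate numbers entered as a block gave 1 call (Nop10; 2.54%) for IVG day 10 against IVV, 0 for IVG-NT day 10 against IVV (2.65%), 0 for IVG-NT against IVG on day 10 (0.747%), 2 (Nop10 and Sbds; 7.32%) on day 6, 0 for IVG day 10 against day 6 (2.51%), 4 (Mdn1, Sbds, Wdr36 and Xrn2; 8.46%) for IVG-NT day 10 against day 6, and 0 for the interaction (4%). Under it neither day 6 call stood (Nvl 2.59 ± 1.57, Wdr36 -1.53 ± 0.77), nor those of Nvl (-1.96) and Utp6 (1.93) between days. Against IVV, where same-numbered libraries are of unlike kind, Polr1a turned to -0.10 in IVG day 10 and to -0.45 in IVG-NT day 10. Pwp2 turned to -0.11 in the latter. For IVG-NT against IVG on day 10 and for IVG day 10 against day 6 the block changed no call.

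Levels under 0.542 and 0.522 CPM (3 counts) could not be followed in the shallow libraries. The setting without both shallow libraries and the order of levels by union length were added after the data had been seen.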
